A study of Mus musculus with 4 samples.

Results

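The mitochondrial import machinery was examined in mouse CD4+ T cells with and without the transcription factor Zfp281. Members were the rows of the expression table whose symbol begins with Timm or Tomm and a number, or is Samm50, Mtx1, Mtx2, Pam16, Pmpca, Pmpcb, Grpel1 or Grpel2. This took 33 of 16718 rows, of which 32 are protein-coding genes and 1, Tomm6os, is a long noncoding RNA on the opposite strand of Tomm6. The rule takes rows by symbol and uses no expression values, but it was set with earlier results of these data known. One subunit of the inner membrane carrier translocase, now called Timm29, stands in the table under its older symbol 1810026J23Rik and so falls outside the rule. It had 16.4 FPKM in cKO cells and 17.6 FPKM in WT cells.

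The labels name 2 libraries of Zfp281 cKO cells, a conditional knockout, and 2 of wild-type (WT) cells. All were naive CD4+ T cells treated with anti-CD3, an antibody that triggers the T cell receptor, for 4 hours. The Cre line that deletes Zfp281, the age of the mice and whether animals were pooled are not stated in what was used here. For each gene and genotype the table has 1 value, so how much the libraries of 1 genotype vary cannot be seen, and every difference below lacks a check by replicates.

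Values are in FPKM, read density corrected for transcript length and library size, so levels of different genes can be set side by side. An estimated 17208154 reads stood behind the cKO values and 17365446 behind the WT values. Folds are cKO over WT FPKM, with 95% intervals (Clopper-Pearson, exact) computed from those reads, which cover counting error only. A gene is said to have fallen or risen where the authors' deposited table gives it an FDR below 0.05 and either genotype had at least 1 FPKM. That FDR compares 2 sets of reads and allows for no variation between libraries. In cells sequenced in bulk, a smaller share of expressing cells and less RNA per cell cannot be told apart. Zfp281 itself had 0.44 FPKM in cKO cells and 66.3 FPKM in WT cells. The markers listed for CD4 T cells and found in the table were Cd3d, Cd3e, Cd3g, Cd4, Cd5, Cd28, Lck and Bcl11b. They summed to 1982 FPKM in cKO cells and 2387 FPKM in WT cells, and none of these 8 was at 0. Apart from Cd4 they are genes of T cells in general, so their sum does not separate CD4 from CD8 T cells. Markers of other cells were far lower. The 2 CD8 T cell markers summed to 18.3 FPKM in cKO cells and 11.8 FPKM in WT cells, and the 3 NK cell markers to 14.8 FPKM in cKO cells and 14.2 FPKM in WT cells. The 5 B cell markers summed to 3.87 FPKM in cKO cells and 2.38 FPKM in WT cells, the 6 monocyte, macrophage and dendritic cell markers to 1.96 FPKM in cKO cells and 1.14 FPKM in WT cells, and the 4 erythroid and platelet markers to 1.11 FPKM in cKO cells and 0.93 FPKM in WT cells. At 0 were Hbb-bs in cKO cells, and Pax5 and Hbb-bt in WT cells. Their part in the differences below was not tested.

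As background, most mitochondrial proteins are made in the cytosol and must be carried through the outer and inner membranes. The TOM complex is the entry gate in the outer membrane, and the SAM complex inserts barrel-shaped proteins there. Behind it, the small TIM proteins escort hydrophobic precursors across the space between the membranes, as soluble chaperone rings built from Timm9 with Timm10 or from Timm8 with Timm13. The TIM23 channel and its motor pull precursors with a cleavable presequence into the matrix, where the processing peptidase cuts the presequence off, while the TIM22 complex inserts carrier proteins into the inner membrane. T cells build up mitochondria after activation, which draws on these routes.

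Many import genes were slightly lower in cKO cells. Of the 30 members at 1 FPKM or more, 13 (43.3%) fell and 0 rose on the FDR of the authors' deposited table. Across all 10728 genes at this level the shares were 16.9% lower and 19.9% higher, and among genes at 10 FPKM or more, where counts are larger, 22.8% and 24.1%. The other 17 members did not pass. In all, 27 of the 30 lay below WT, against 46.6% of all genes, and only Pam16, Timm17b and Timm13 lay above. The median change of the members was -0.17 on the log2 scale, or 0.887 of WT, against 0.02 for all genes. Added up, the 33 members amounted to 925 FPKM in cKO cells and 1045 FPKM in WT cells.

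The falls were small outside the small TIM group. By a rule of size, 4 members were at or below 0.8 of WT and 0 were higher by the same factor, against 9.68% and 13.3% of all genes. All 4 encode small TIM chaperones. None of the 33 members was among the genes that the authors marked as changed. With a coefficient of variation (CV) of 5% assumed in each genotype on top of counting error, 3 members would have been lower (Timm10, Timm9 and Timm8b), against 4.82% of all genes, and with 10% none, against 0.699%.

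**Figure D1:**
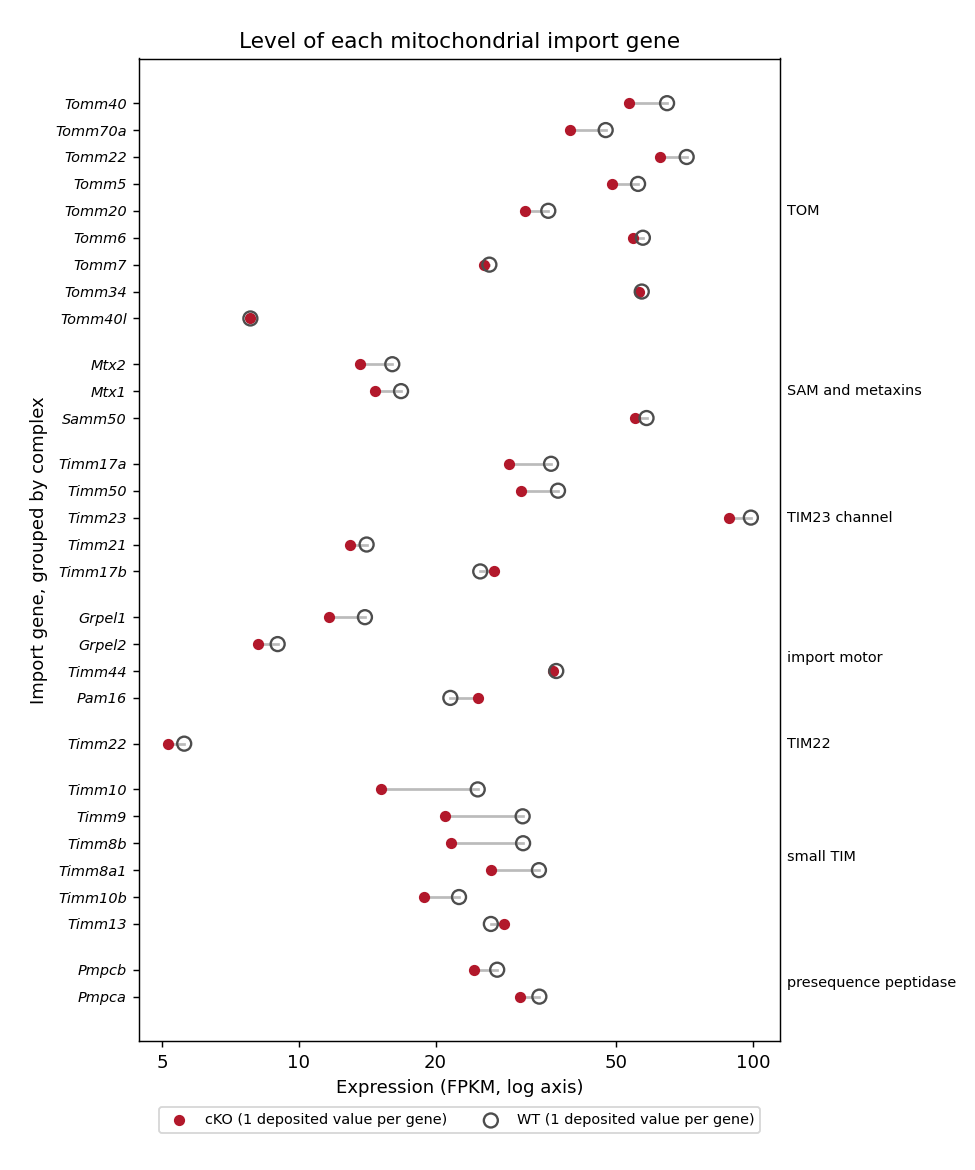
Level of the 30 import genes at 1 FPKM or more, in FPKM on a log axis, grouped by complex. Filled circles are cKO and open circles WT, 1 deposited value each; the widest gap is that of Timm10, 15.2 FPKM in cKO and 24.8 FPKM in WT.

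The promoters of the 3 members with the lowest folds among the 30 at 1 FPKM or more, Timm10, Timm9 and Timm8b, and of Tomm70a, the member with the smallest p-value in the authors' deposited table, are shown as the stretches where the starts of these genes lie. They are the 250 bases before a RefSeq transcript start in GRCm38.p6, 5′ to 3′ on the gene's strand. The windows are chr2:84826771-84827020 (plus strand) for Timm10, chr12:71136676-71136925 (minus strand) for Timm9, chr9:50603651-50603900 (plus strand) for Timm8b and chr16:57121464-57121713 (plus strand) for Tomm70a. Capitals mark matches on either strand to CCGGAAG, the core bound by ETS family factors such as GABP, or to CACGTG, the E-box bound by MYC and its relatives.
Timm10: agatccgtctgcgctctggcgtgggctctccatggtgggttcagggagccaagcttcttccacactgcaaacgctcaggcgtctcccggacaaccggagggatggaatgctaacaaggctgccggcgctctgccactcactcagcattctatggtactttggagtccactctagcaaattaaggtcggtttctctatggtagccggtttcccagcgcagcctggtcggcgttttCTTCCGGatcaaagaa
Timm9: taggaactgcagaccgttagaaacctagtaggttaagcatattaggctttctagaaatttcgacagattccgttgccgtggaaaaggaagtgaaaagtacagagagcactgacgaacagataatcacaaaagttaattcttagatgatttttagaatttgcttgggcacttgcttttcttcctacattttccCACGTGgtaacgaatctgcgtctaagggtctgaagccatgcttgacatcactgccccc
Timm8b: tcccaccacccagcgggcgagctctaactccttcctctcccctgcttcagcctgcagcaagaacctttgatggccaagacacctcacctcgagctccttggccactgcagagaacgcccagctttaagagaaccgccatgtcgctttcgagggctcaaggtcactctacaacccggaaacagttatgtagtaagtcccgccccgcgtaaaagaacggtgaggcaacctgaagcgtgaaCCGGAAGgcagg
Tomm70a: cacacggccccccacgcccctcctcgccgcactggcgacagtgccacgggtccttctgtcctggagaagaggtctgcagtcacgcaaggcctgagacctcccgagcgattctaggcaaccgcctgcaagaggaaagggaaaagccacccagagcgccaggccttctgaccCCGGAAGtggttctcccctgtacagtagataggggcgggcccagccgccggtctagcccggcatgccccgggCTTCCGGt
The ETS-type string ends close to the transcript start in Timm10, where its first base is 16 bases upstream, and in Timm8b, at 12 bases. Tomm70a holds it at 80 and at 8 bases upstream, and Timm9 holds the E-box at 58 bases upstream. For Timm9 the transcript start used lies inside the gene span given below, which ends at 71136708. The last bases of its window therefore lie within that span, and the E-box is nearer to the end of the span than to the start used. The Timm9 and Timm8b windows also contain the start of a neighbouring gene on the other strand, described below.

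Promoter windows were found for 29 of the 33 members, and for 26 of the 30 at 1 FPKM or more. Of these 26, 11 (42.3%) held CCGGAAG or its reverse complement, against 17.7% of 8437 genes of the table at 1 FPKM or more with a window and 6.91% of all 32851 windows. The string was in 7 of the 13 genes that fell and in 4 of the 13 that did not pass. The E-box was in Timm8a1, Timm9 and Tomm20, all of which fell, or 11.5% of the 26, against 10.4% of the 8437 genes. The other 2 strings searched were GCGCATGC, of the kind bound by NRF1, and GGGGAGGGG, a G-rich string of the kind bound by Zfp281. The NRF1-type string was in Grpel1 and Timm13, or 7.69% of the 26, against 5.57% of the 8437 genes. The G-rich string was in none of the 26, against 8.77% of the 8437 genes. None of the 4 strings contains another, and all windows were searched on both strands. A match is a description of the letters and not a binding site.

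The small TIM chaperones held the largest falls. Of the 6 measured at 1 FPKM or more, 4 fell, against 16.9% of all genes at this level, and the group's median fold was 0.737. Timm10 lies on chromosome 2 of GRCm38, at 84827021 to 84830213 (NCBI gene 30059), and had 15.2 FPKM in cKO cells and 24.8 FPKM in WT cells. It fell to 0.612 of WT (95% interval 0.503 to 0.742), on an estimated 171 reads in cKO and 282 in WT, with an FDR of 3.02e-06 in the authors' deposited table. Timm9 (gene 30056, chromosome 12, 71123172 to 71136708), its partner in the main hexameric ring, had 21.0 FPKM in cKO cells and 31.1 FPKM in WT cells. Its fold was 0.676 (0.586 to 0.779), and the authors' deposited table gives it an FDR of 2.85e-07. The folds of the ring partners could not be told apart, with a Timm9 to Timm10 ratio of 1.10 (0.873 to 1.40).

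The second ring is built from a Timm8 protein and Timm13, and its genes did not move alike. Timm8b (gene 30057, chromosome 9, 50603901 to 50605320) had 21.6 FPKM in cKO cells and 31.2 FPKM in WT cells, 0.692 of WT (0.570 to 0.837). Timm8a1, the mouse counterpart of the human gene mutated in deafness-dystonia syndrome (gene 30058, chromosome X, 134537256 to 134541670), had 26.5 FPKM in cKO cells and 33.8 FPKM in WT cells, 0.784 of WT (0.701 to 0.877). Timm13, in contrast, had 28.3 FPKM in cKO cells and 26.5 FPKM in WT cells and did not pass, at 1.07-fold (0.950 to 1.20). The difference from Timm13 exceeded counting error for both Timm8 genes. The ratio of folds was 0.648 (0.520 to 0.807) for Timm8b and 0.734 (0.625 to 0.861) for Timm8a1. In FPKM, Timm8a1 stood at 0.936 times Timm13 in cKO cells and 1.28 times in WT cells, and Timm8b at 0.763 times Timm13 in cKO cells and 1.18 times in WT cells.

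Timm10b, a small TIM that sits with the TIM22 complex, had 18.9 FPKM in cKO cells and 22.5 FPKM in WT cells, a fold of 0.837 (0.720 to 0.973) that did not pass. Its fold exceeded that of Timm10 by 1.37 times (1.08 to 1.74). Timm8a2, a close relative of Timm8a1 whose reads may be shared with it, was below the filter at 0.50 FPKM in cKO cells and 0.44 FPKM in WT cells. Timm22, the channel that the small TIMs deliver carrier proteins to, had 5.16 FPKM in cKO cells and 5.59 FPKM in WT cells, the lowest WT level of the 30. It did not pass, at 0.923 of WT (0.774 to 1.10). The 6 small TIM transcripts are 527 to 1243 bases long. Of 1266 genes at 1 FPKM or more within this length range 11.7% fell, and their median log2 change was -0.0014. The part of length in these changes was not tested. Across the 30 members the Spearman correlation of transcript length with log2 change was 0.29, and that of WT level with log2 change was -0.13. These are descriptions over genes measured in the same libraries.

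**Figure D2:**
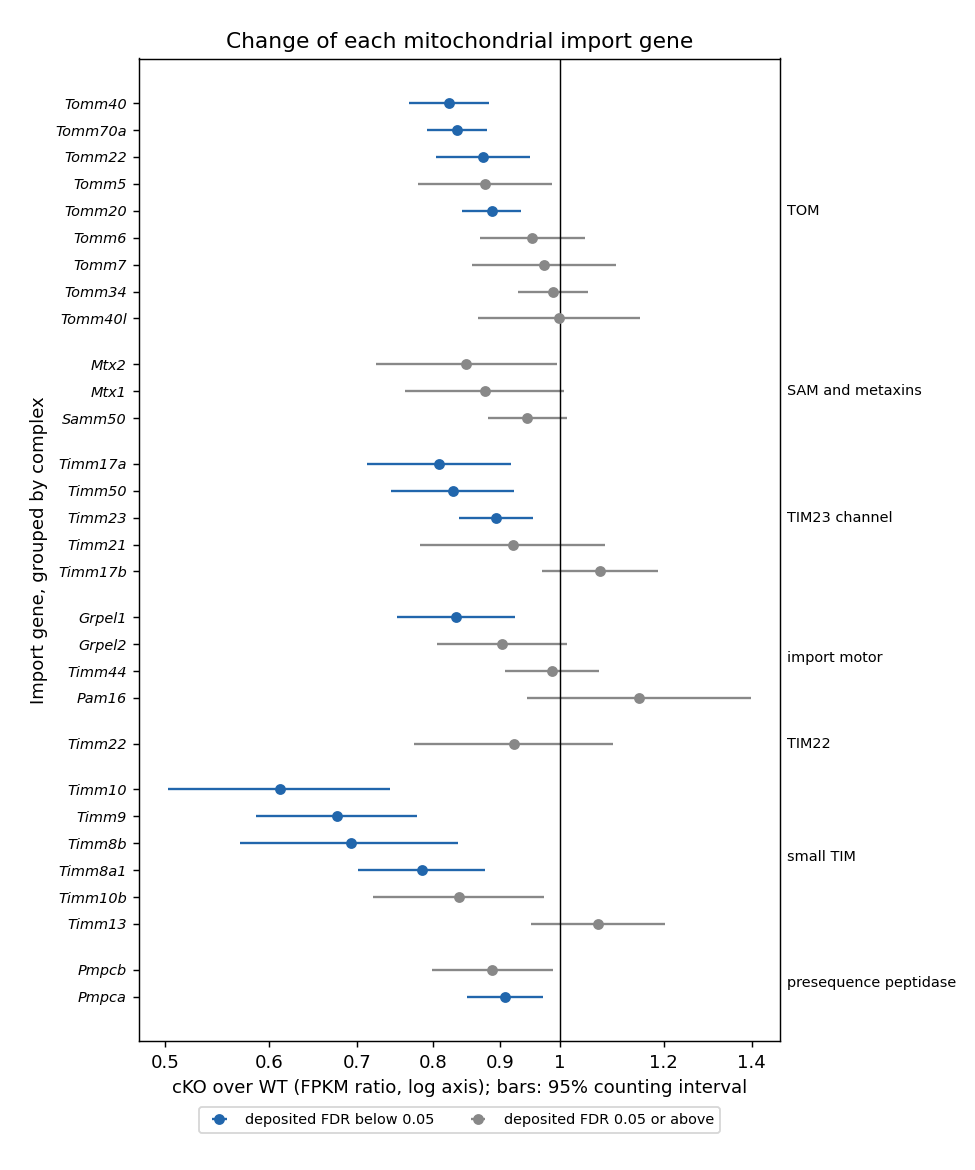
FPKM ratio of cKO over WT for the 30 import genes at 1 FPKM or more, on a log axis, with 95% counting intervals. Blue genes had an FDR below 0.05 in the authors' deposited table; Timm10, Timm9, Timm8b and Timm8a1 lie farthest to the left.

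In the outer membrane gate, the genes of the pore and of the 3 receptors fell, and those of the small subunits did not pass. This split in calls does not make their changes different. The small subunit gene Tomm5 had a fold of 0.877 on an estimated 532 reads in cKO and 612 in WT. The receptor gene Tomm22 had a fold of 0.874 on 1079 reads in cKO and 1246 in WT. Of 9 TOM genes at 1 FPKM or more, 4 fell, 0 rose, and all 9 lay below WT. Tomm40l (0.999) and Tomm34 (0.988), the latter not a membrane subunit, were nearly level with WT. Of all genes at this level, 16.9% fell, 19.9% rose and 46.6% lay below WT. Tomm40 (gene 53333, chromosome 7, 19701313 to 19715442), which forms the pore, had 53.3 FPKM in cKO cells and 64.7 FPKM in WT cells, 0.824 of WT (0.767 to 0.883). Tomm70a (gene 28185, chromosome 16, 57121714 to 57154530), the receptor that takes precursors from cytosolic chaperones, had 39.6 FPKM in cKO cells and 47.4 FPKM in WT cells. Its fold was 0.835 (0.792 to 0.880), and on an estimated 2588 reads in cKO and 3128 in WT the authors' deposited table gives it an FDR of 1.76e-10. The presequence receptor gene Tomm20 had 31.4 FPKM in cKO cells and 35.4 FPKM in WT cells, 0.887 of WT (0.842 to 0.934). Tomm22, the central receptor and organiser of the complex, had 62.5 FPKM in cKO cells and 71.5 FPKM in WT cells, 0.874 of WT (0.805 to 0.949). The intervals of these 4 folds overlapped.

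Of the small subunits that hold the gate together, Tomm6 and Tomm7 were nearer to WT than Tomm5. Tomm5 had 49.0 FPKM in cKO cells and 55.9 FPKM in WT cells, at 0.877 (0.779 to 0.987), and did not pass. Tomm6 stood at 0.952 (0.869 to 1.04) and Tomm7 at 0.973 (0.857 to 1.10). Tomm40l, a relative of the pore gene, had 7.81 FPKM in cKO cells and 7.82 FPKM in WT cells. The ratio of the Tomm40 fold to the Tomm40l fold was 0.825 (0.706 to 0.964), on far fewer reads for Tomm40l. Tomm34, a cytosolic cochaperone rather than a membrane subunit, had 56.2 FPKM in cKO cells and 56.9 FPKM in WT cells. It overlaps Stk4 on the opposite strand, which rose to 125.7 FPKM in cKO cells, against 94.9 FPKM in WT cells. Timm8b overlaps AU019823 (now Nkapd1) on the opposite strand, which fell to 17.0 FPKM in cKO cells, against 19.5 FPKM in WT cells, 0.869 of WT (0.797 to 0.947). Pmpca overlaps Inpp5e on the opposite strand, which rose to 11.98 FPKM in cKO cells, against 10.19 FPKM in WT cells, 1.18-fold (1.064 to 1.299). Whether the libraries kept the strand is not stated in what was used here, so reads from these overlaps cannot be assigned to either gene. In all, 16 of the 33 rows overlap an annotated protein-coding gene, Tomm6 and Tomm6os each other among them. Tomm6os had 0.63 FPKM in cKO cells and 0.53 FPKM in WT cells. Tomm20l, a relative of Tomm20, was listed at 0 in cKO cells and at 0.10 FPKM, about 1 read, in WT cells.

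No gene of the SAM complex passed. Samm50, the barrel that inserts other barrel proteins, had 55.0 FPKM in cKO cells and 58.3 FPKM in WT cells, at 0.944 (0.881 to 1.01). The metaxin genes, whose products flank Samm50 on the cytosolic side, were lower in level than it. Mtx1 had 14.7 FPKM in cKO cells and 16.8 FPKM in WT cells, at 0.876 (0.762 to 1.01), and Mtx2 13.6 FPKM in cKO cells and 16.1 FPKM in WT cells, at 0.849 (0.724 to 0.995). All 3 lay below WT, as did 46.6% of all genes at 1 FPKM or more.

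In the inner membrane, 3 of the 5 TIM23 channel genes fell and 0 rose. Of all genes at 1 FPKM or more, 16.9% fell and 19.9% rose. Timm23, the channel subunit, had the highest level of the 30 in both genotypes, with 88.5 FPKM in cKO cells and 99.0 FPKM in WT cells, 0.894 of WT (0.838 to 0.954). Timm50, which receives precursors from the outer gate, had 30.8 FPKM in cKO cells and 37.2 FPKM in WT cells, 0.829 of WT (0.744 to 0.923). Timm21, which links the channel to the respiratory chain, had 13.0 FPKM in cKO cells and 14.1 FPKM in WT cells and did not pass.

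The alternative forms of the Timm17 subunit, encoded by separate genes, differed in fold by more than counting error. The pair was chosen after the values had been seen, and variation between libraries is not covered. Timm17a (gene 21854, chromosome 1, 135301535 to 135313737) had 29.0 FPKM in cKO cells and 35.9 FPKM in WT cells and fell to 0.808 of WT (0.712 to 0.917), with an FDR of 0.00459 in the authors' deposited table. Timm17b (gene 21855, chromosome X, 7899336 to 7907652) had 26.9 FPKM in cKO cells and 25.1 FPKM in WT cells, at 1.07-fold (0.968 to 1.19), and did not pass. The ratio of the folds was 0.754 (0.642 to 0.885). In FPKM, Timm17a stood at 1.08 times Timm17b in cKO cells and 1.43 times in WT cells.

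Around the import motor, which pulls precursors inward with the chaperone Hspa9, 1 of 4 genes fell (25%). That share is near those of all genes, 16.9% at 1 FPKM or more and 22.8% at 10 FPKM or more. Grpel1, the nucleotide exchange factor that resets Hspa9, had 11.6 FPKM in cKO cells and 14.0 FPKM in WT cells, 0.833 of WT (0.751 to 0.924). Its relative Grpel2 had 8.11 FPKM in cKO cells and 8.98 FPKM in WT cells, at 0.903 (0.805 to 1.01), and the ratio of the folds was 0.922 (0.792 to 1.07). Timm44, which tethers Hspa9 to the channel, had 36.4 FPKM in cKO cells and 36.9 FPKM in WT cells. Pam16, which restrains the cochaperone that stimulates Hspa9, had 24.8 FPKM in cKO cells and 21.6 FPKM in WT cells. At 1.15-fold (0.943 to 1.40), on an estimated 223 reads in cKO and 196 in WT, it had the highest fold of the 30 and did not pass. The Grpel1 to Pam16 ratio of folds was 0.725 (0.584 to 0.901).

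The processing peptidase is a dimer of Pmpca and Pmpcb. Pmpca fell, with 30.8 FPKM in cKO cells and 33.9 FPKM in WT cells, 0.909 of WT (0.850 to 0.971). Pmpcb, the catalytic subunit, had 24.3 FPKM in cKO cells and 27.3 FPKM in WT cells and a fold of 0.888 (0.799 to 0.987) that did not pass. The ratio of their folds was 1.02 (0.904 to 1.16), so a call for Pmpca and none for Pmpcb does not make their changes different.

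**Figure D3:**
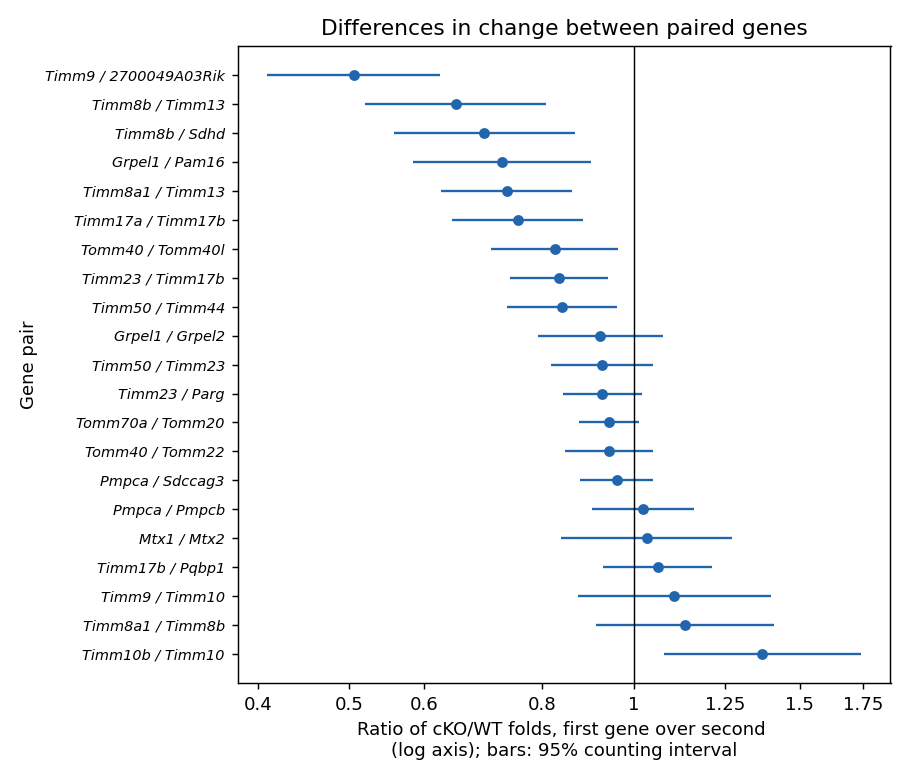
Ratio of the cKO over WT fold of the first gene to that of the second, for 21 pairs chosen by complex, family or shared start region after the values had been seen, on a log axis with 95% counting intervals. In the pairs of Timm8b, Timm8a1 and Timm17a with Timm13 or Timm17b the whole interval lies below 1, and in Timm9 with Timm10 it spans 1.

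Of 21 such pairs, 10 had an interval that did not include 1. With this many intervals some would be expected to miss 1 by counting error, and variation between libraries would widen them all. Among these pairs were members whose start lies within 200 bases of the start of a protein-coding gene on the other strand, of which there were 5. Timm8b starts 98 bases from Sdhd, which encodes a membrane anchor of respiratory complex II. Sdhd had 25.5 FPKM in cKO cells and 25.6 FPKM in WT cells, so that the ratio of the Timm8b fold to the Sdhd fold was 0.695 (0.557 to 0.866). Timm9 starts 164 bases from 2700049A03Rik, which rose to 3.65 FPKM in cKO cells, against 2.73 FPKM in WT cells, 1.34-fold (1.14 to 1.58). The Timm9 fold was 0.505 (0.409 to 0.624) of it. Timm23 and Parg, a poly(ADP-ribose) hydrolase gene, start 51 bases apart, and their ratio of folds was 0.927 (0.842 to 1.02). For Pmpca and Sdccag3, 23 bases apart, it was 0.959 (0.878 to 1.05), and for Timm17b and Pqbp1, 88 bases apart, 1.06 (0.928 to 1.21).

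Of 37 genes at 1 FPKM or more that work with the import machinery but fall outside the rule, 10 (27.0%) fell and 0 rose. The share that fell is near the 22.8% of all genes at 10 FPKM or more, and above the 16.9% of all genes at 1 FPKM or more. Pitrm1, which degrades cut presequences, had 25.6 FPKM in cKO cells and 35.4 FPKM in WT cells, 0.723 of WT (0.677 to 0.771). Hspd1, the chaperonin that folds imported proteins, had 99.6 FPKM in cKO cells and 135.3 FPKM in WT cells, 0.736 of WT (0.707 to 0.767). Chchd4, which oxidises and traps small TIM proteins on entry, had 18.7 FPKM in cKO cells and 24.4 FPKM in WT cells, 0.765 of WT (0.669 to 0.874). Gfer, which reoxidises Chchd4, had 9.58 FPKM in cKO cells and 9.88 FPKM in WT cells and did not pass. Hspa9, the motor chaperone, had 94.5 FPKM in cKO cells and 121.8 FPKM in WT cells, 0.776 of WT (0.748 to 0.805), while its cochaperone gene Dnajc19 did not pass, at 0.941 (0.782 to 1.14). In the list of partners proper 6 of 21 fell, and in that of quality control and cristae genes 4 of 16, with Clpp lowest of these 4 at 0.851 (0.751 to 0.965).

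By median fold, the import genes (0.887) lay between the chaperonin and the other mitochondrial families. The counts below stand beside 16.9% of all genes that fell and 19.9% that rose. Of 77 mitochondrial ribosomal protein genes 15 fell (19.5%, near the share of all genes) and 1 rose, with a median of 0.943 of WT. Of 76 oxidative phosphorylation genes 8 fell (10.5%) and 3 rose, with a median of 0.976. All 8 subunits of the cytosolic chaperonin fell, with a median of 0.828. Of 76 cytosolic ribosomal protein genes 7 fell and 34 rose. These are counts over genes of the same libraries, and the difference between families was not tested.

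**Figure D4:**
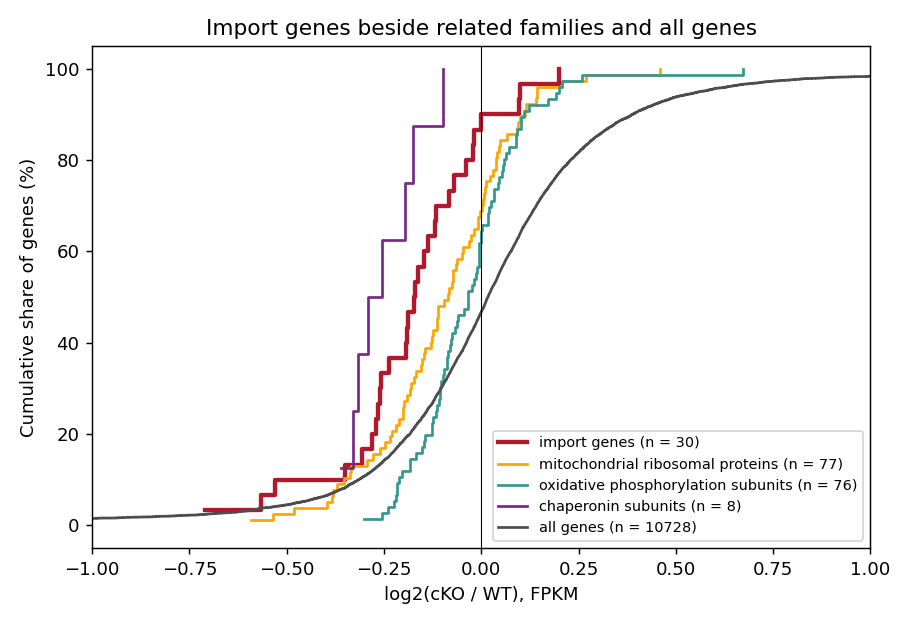
Cumulative share of genes, in percent, by log2 ratio of cKO to WT FPKM, for genes at 1 FPKM or more in either genotype. By median, the import genes (30, -0.17) lie left of the mitochondrial ribosomal (77), oxidative phosphorylation (76) and all genes (10728). The median of the 8 chaperonin subunits (-0.27) lies farther left, though the lowest import fold (0.612) is below the lowest chaperonin fold (0.778).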

How the data were processed

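Per the labels' protocols, RNA was extracted with an RNeasy kit and BGISEQ-500 sequencing followed. Bowtie2 2.2.5 and mm10 appear in the submitters' processing notes; the quantification tool is not given in the sources used here. For each gene and genotype the authors deposited 1 FPKM value (unit inferred from the values), with 0.01 as the lowest, taken as 0. The log2 fold changes deposited by the authors are ratios of these FPKM values. The deposited p-value is the authors' own, and the deposited FDR, handled as a score, reaches 1.03.

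The design had called for limma if each library had a value; with 1 value per genotype no test was run, and calls rest on the deposited FDR. Reads per gene were estimated as FPKM times length (less 36 bases) over 56.7 FPKM bases per read, with a cKO to WT depth ratio of 0.991, all fitted to the deposited p-values. A recomputed Audic and Claverie test gave log10 p-values that correlated with the deposited ones at r = 0.999 across 16706 genes. Because the steps were fitted to these p-values, this is no independent check. The interval and the assumed-CV test, with Benjamini-Hochberg adjustment over all genes, were tested on simulated data. Intervals on ratios of folds are normal approximations on the log scale.

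Every member is accounted for. Of the partner lists, the genes with the largest changes among those called were named, up to 4, and Gfer, Dnajc19, Clpp, Stk4, AU019823, Inpp5e, 1810026J23Rik and the genes at shared starts were added after their values were seen. Members and lists were chosen with earlier results of these data known. Gene positions and promoters are RefSeq GRCm38.p6 (the assembly of mm10), matched by gene ID for all 33 members; overlaps and distances between starts are from GENCODE M21. Python 3.11.15, pandas 2.3.3 and SciPy 1.17.1 were used.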

Additional observations from a re-analysis of the deposited data

How the results depend on the processing

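The 13 import genes and 10 partner genes that fell were the same in number with no filter and with a filter of 10 FPKM. The numbers also held when these genes had to lie below the median change of all genes. Because that median was above 0, at 0.017 on the log2 scale, this condition could remove no gene that fell. At an FDR threshold of 0.001, 7 import genes and 8 partner genes fell. An assumed CV of 10% left 0 of each, and one of 5%, added after the data were seen, left 3 of each. The number that rose was 0 for both under every alternative. The stricter threshold, the filter of 10 FPKM and the median condition can only take genes away, so their 0 was fixed in advance. An assumed CV adds variation to counting error and so weakens calls, which makes its 0 a weak check too. At or below 0.667 of WT (1.5-fold) lay 1 import gene, against 4 at or below 0.8; the other alternatives gave 4 or 5. The median log2 change of the import genes ranged from -0.19 to -0.17. That of Zfp281 was -7.23, or -5.55 with a pseudocount of 1 FPKM, which shrinks the change of a gene at a low level. For the 33 single genes, all 66 recomputed changes, with the median of all genes set to 0 or with the pseudocount, kept their sign and lay within their counting intervals. A pseudocount cannot change a sign, and setting the median to 0 moves each log2 change by only 0.017. This result therefore tests the single genes little. No paired analysis was possible because the table holds 1 value per genotype, and for the same reason no library could be left out. Depth limits Timm8a2, Tomm20l and Tomm6os, on 0 to 32 estimated reads per genotype. An interval that includes 1 does not show that a gene was unchanged.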
